A study of Mus musculus with 6 samples.

Results

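Serpins and other protease inhibitors were examined as a group of 33 genes in 2 subsets of cortical thymic epithelial cells (cTEC). The group was made of 3 WAP inhibitors, 2 Kazal inhibitors, 3 cystatins, 4 TIMPs, and 21 serpins, of which 2 belong to clade A and 11 to clade B. The members were chosen by symbol, with earlier results of these data known, and all 33 were found among the 39179 genes of the count table. Shares and medians of all genes that stand beside those of the members are therefore a description and not a test. Cells came from 10 week old *Cxcl12*::DsRed knockin mice, in which DsRed, a red fluorescent reporter, shows where the chemokine gene *Cxcl12* is expressed, and all mice carried the reporter and were untreated. The sort kept CD45-EpCAM1+UEA1-Ly51+ cells, which were then split into *Cxcl12*DsRed- cTEC and *Cxcl12*DsRed+ cTEC, called DsRed- and DsRed+ cTEC from here on. There were 6 libraries, with 1 per subset from each experiment (A, B and C). How many mice gave each library is not given in the sources used here.

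Protease inhibitors limit where and for how long a protease can cut. Most serpins present a loop that a serine protease, or in some cases a cysteine protease, cleaves, after which both proteins remain locked together. WAP and Kazal inhibitors block serine proteases, cystatins block lysosomal cysteine proteases of the cathepsin family, and TIMPs block matrix metalloproteinases. Clade B serpins lack a classical secretion signal and act mainly inside cells, and their genes lie in clusters. In the thymic cortex, proteases such as cathepsin L and the thymus-specific serine protease PRSS16 take part in making the peptides on which CD4+ T-cells are selected.

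The libraries held 34574900 to 51042679 counts in genes, and 29 of the 33 members passed a filter on low counts among the 15576 genes that did. The DsRed transcript stood at 17.6 to 27.8 CPM (counts relative to the TMM-scaled library size) in DsRed- cTEC and at 860 to 2059 CPM in DsRed+ cTEC, so every library went with its label. Of 14 cTEC markers, such as *Foxn1* and *Psmb11*, 11 were lower in every DsRed- library than in every DsRed+ library (9.32% of all genes). In 1 marker every DsRed- library was higher (9.73%). *Prss16*, *Psmb11* and *Cxcl12* fell (0.173% of all genes). The subsets were sorted by the reporter of *Cxcl12*, so the fall of this gene followed from the sort, and it is part of the list and its sum. The summed level of the list was 6519 to 9753 CPM against 15199 to 27003 CPM, and no marker was at 0 in all libraries. Pearson's r of the DsRed- library of C was 0.880 and 0.837 against its own subset in A and B, and 0.913, 0.895 and 0.859 against DsRed+ cTEC in A, B and C (across genes, on log2 of CPM + 0.5). In bulk libraries, fewer cells of a type and less RNA per cell cannot be told apart. Fold changes are DsRed- relative to DsRed+ cTEC throughout.

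Of the 29 members tested, *Wfdc2*, *Slpi*, *Serpinb11* and *Serpinb7* rose in DsRed- cTEC, none fell and 25 did not pass edgeR's quasi-likelihood test at an adjusted p under 0.05. Over all 15576 genes tested, 0.449% passed as higher and 0.173% as lower. The 4 members rose by 4.64 to 11.59 on the log2 scale. The standard error (SE) is given beside each fold change. At an unadjusted p under 0.05 there were 10 members higher and 3 lower (7.02% and 4.80% of all genes), and 9 members were higher by edgeR's likelihood ratio test (3.53% of all genes) and by DESeq2 (4.68%), with 1 and 2 lower (2.12% and 2.51%). By limma voom only *Wfdc2* passed (0.0193% of all genes as higher and 0.00642% as lower). Blocked by experiment, 4 were higher (0.334%) and none lower (0.135%). Across the 29, log2 fold changes had a median of 0.57, against 0.02 over all genes tested. In 9 members every DsRed- library was above every DsRed+ library (9.73% of all genes), and in 3 every one was below (9.32%). Within all 3 experiments 13 were higher (17.5%) and 7 lower (17.5%). When any library but the DsRed- library of C was left out, none of the 4 passed (adjusted p of 0.0632 to 0.156), and at most 1 of all genes tested did. When the DsRed- library of C was left out, all 4 passed (adjusted p of 0.0191 to 0.0453).

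**Figure D1:**
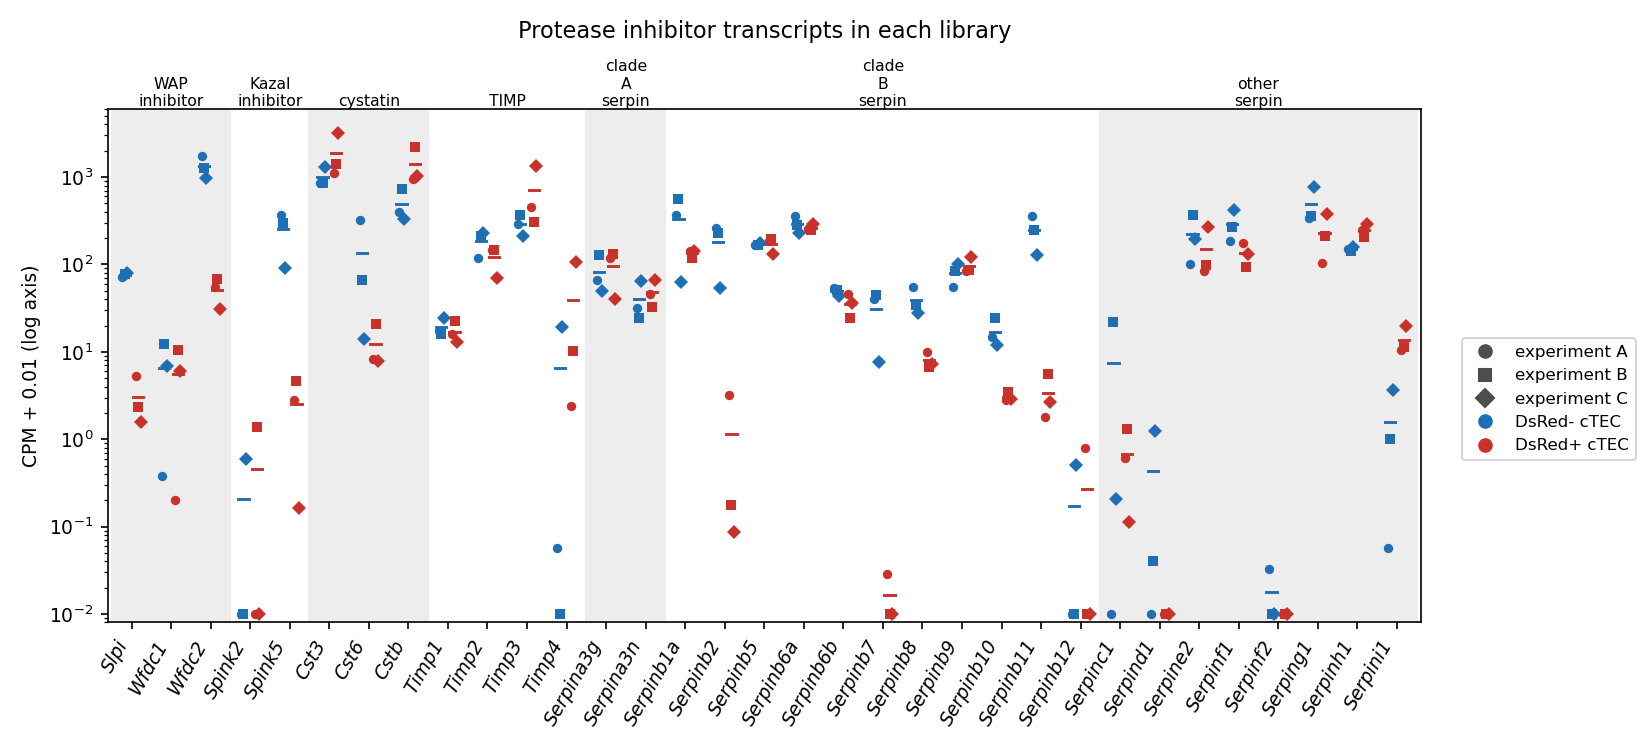
CPM + 0.01 on a log axis for all 33 members, ordered by family, in DsRed- cTEC (blue) and DsRed+ cTEC (red). Points are single libraries, drawn as circles for A, squares for B and diamonds for C, with bars at subset means. *Slpi*, *Wfdc2*, *Spink5* and 5 clade B serpins have blue points well above the red ones, while *Cstb*, *Serpinh1* and *Serpini1* have blue points below the red ones.

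Among the WAP inhibitors, *Wfdc2* and *Slpi* rose. *Wfdc2* encodes a small secreted protein of airway and genital tract epithelium. It stood at 1740, 1271 and 977 CPM in DsRed- cTEC of A, B and C, and at 54.5, 67.5 and 30.7 CPM in DsRed+ cTEC. All DsRed- libraries were far above the DsRed+ libraries, at a ratio of the means of 26.1. The log2 fold change was 4.71 (SE 0.40, adjusted p = 0.0319, and 0.0204 when blocked by experiment). Per kilobase of exon, *Wfdc2* was the highest of the 33 members in DsRed- cTEC (mean 1166 CPM per kb) and ranked 11 in DsRed+ cTEC (44.7 CPM per kb). *Slpi* encodes the secretory leukocyte peptidase inhibitor, which blocks neutrophil elastase and cathepsin G. It stood at 72.7, 76.8 and 79.9 CPM in DsRed- cTEC, and at 5.31, 2.32 and 1.55 CPM in DsRed+ cTEC. The DsRed- libraries were close to each other, with an SD of 3.58 CPM, and none overlapped with the other subset. The log2 fold change was 4.64 (SE 0.53, adjusted p = 0.0357). Blocked by experiment, the adjusted p of *Slpi* was 0.0528, so it did not pass, and over all alternatives it ranged from 1.1e-17 to 0.357. *Wfdc1*, the remaining WAP gene, differed more between experiments than between subsets. It stood at 0.369, 12.2 and 6.94 CPM in DsRed- cTEC, and at 0.189, 10.4 and 6.06 CPM in DsRed+ cTEC (log2 fold change 0.22, adjusted p = 0.981). On GRCm38, *Slpi* lies on chromosome 2 from 164354070 to 164389095 and *Wfdc2* from 164562413 to 164568510.

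The Kazal inhibitor gene *Spink5* encodes LEKTI, which restrains kallikreins in the epidermis. It stood at 369, 298 and 91.9 CPM in DsRed- cTEC, and at 2.82, 4.63 and 0.155 CPM in DsRed+ cTEC. The subsets did not overlap, and the library of C was the lowest in both. The log2 fold change of 6.63 (SE 1.20) did not pass in edgeR's quasi-likelihood test (adjusted p = 0.0717), and passed when blocked by experiment (adjusted p = 0.0460, against the same 0.334% of all genes). *Spink2*, which is known from testis, was read in the DsRed+ library of B (65 counts) and the DsRed- library of C (24 counts) and had 0 counts elsewhere, so it was not tested. Of the kallikrein genes, which were chosen here after their values were seen, *Klk5*, *Klk6* and *Klk10* had 0 counts in all libraries. *Klk7* stood at 9.42, 8.40 and 0.0246 CPM in DsRed- cTEC with 0 counts in DsRed+ cTEC, and did not pass the filter.

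None of the cystatins passed. *Cst3* and *Cstb*, which encode the secreted cystatin C and the cytosolic cystatin B, together made up 18.6% to 28.3% of the CPM of all 33 members in DsRed- cTEC and 48.2% to 63.6% in DsRed+ cTEC. *Cstb* stood at 402, 732 and 328 CPM in DsRed- cTEC, and at 949, 2218 and 1031 CPM in DsRed+ cTEC. It was lower in every DsRed- library, and within each experiment (log2 fold change −1.52, SE 0.44, adjusted p = 0.207, and 0.0342 by the likelihood ratio test, with a range of 0.0118 to 0.511 over the alternatives). *Cst3* stood at 864, 866 and 1315 CPM in DsRed- cTEC, and at 1109, 1399 and 3172 CPM in DsRed+ cTEC. It was lower within each experiment, but the DsRed- library of C exceeded the DsRed+ library of A (log2 fold change −0.90, SE 0.42, adjusted p = 0.493). *Cst6*, which encodes the epidermal cystatin E/M, an inhibitor of legumain and cathepsin L, went the other way. It stood at 326, 66.4 and 14.1 CPM in DsRed- cTEC, and at 8.37, 20.5 and 7.76 CPM in DsRed+ cTEC. The library of A carried most of that level, and the subsets overlapped (log2 fold change 3.47, SE 1.10, adjusted p = 0.257). Without experiment A the log2 fold change of *Cst6* was 1.45.

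None of the 4 TIMP genes passed. *Timp3*, whose protein binds to the extracellular matrix, was the highest TIMP in DsRed+ cTEC per kilobase of exon (86.4 CPM per kb). It stood at 293, 366 and 210 CPM in DsRed- cTEC, and at 454, 308 and 1349 CPM in DsRed+ cTEC. The subsets overlapped, and the DsRed+ library of C stood above the other 5 (log2 fold change −1.28, SE 0.56, adjusted p = 0.441). *Timp4* stood at 0.0462, 0 and 19.3 CPM in DsRed- cTEC, and at 2.40, 10.2 and 106 CPM in DsRed+ cTEC, where again the library of C was the highest of its subset (adjusted p = 0.780). The DsRed+ library of C also held the highest summed level of 20 endothelial markers, 7523 CPM against 986 and 990 CPM in A and B, and 88.5 to 155 CPM in DsRed- cTEC. Of these markers 3 fell (*Emcn*, *Cd93* and *Esm1*). Blocked by experiment, *Cd93* did not pass (adjusted p = 0.0778) and others were added, so that 4 were lower (0.135% of all genes). In the list 18 were lower without overlap (9.32% of all genes), and none was at 0 in all libraries. The part of these markers in the levels of *Timp3* and *Timp4* was not tested. *Timp1* and *Timp2* had log2 fold changes of 0.18 and 0.61 with overlapping subsets (adjusted p = 0.945 and 0.635). *Timp3* shares 1733 bases of exon with *Syn3* and *Timp4* shares 90 with *Syn2*, on the opposite strand, and counting by strand is not stated, so their reads cannot be told apart there.

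The clade B serpins divided by their place in the genome. Of 11 members, 7 lie on chromosome 1 and 4 on chromosome 13. On chromosome 1 the 5 neighbours *Serpinb11*, *Serpinb7*, *Serpinb2*, *Serpinb10* and *Serpinb8*, between 107361198 and 107610484, were each higher in every DsRed- library than in every DsRed+ library, and 2 of them passed. Their summed level was 731, 584 and 228 CPM in DsRed- cTEC of A, B and C, and 17.9, 16.0 and 12.9 CPM in DsRed+ cTEC. All other clade B members, *Serpinb5* and *Serpinb12* at the other end of the same cluster and the 4 on chromosome 13, overlapped between the subsets. The grouping by position was made after the values were seen and is a description.

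*Serpinb11* stood at 360, 250 and 127 CPM in DsRed- cTEC, and at 1.80, 5.63 and 2.63 CPM in DsRed+ cTEC. The lowest DsRed- library, that of C, was far above the highest DsRed+ library (log2 fold change 6.19, SE 0.64, adjusted p = 0.0319, and 0.0451 when blocked by experiment). *Serpinb7*, which encodes megsin, an inhibitor known from kidney mesangium and epidermis, stood at 39.8, 44.9 and 7.55 CPM in DsRed- cTEC. Against these 3507 counts it had a single count over the DsRed+ libraries, in A, which puts the ratio at 4192 (752 to 165637 as the 95% interval of counting error alone). The log2 fold change was 11.59 (SE 1.29, adjusted p = 0.0357, blocked 0.0387). *Serpinb2* encodes plasminogen activator inhibitor 2, which blocks urokinase. It stood at 261, 231 and 53.4 CPM in DsRed- cTEC, and at 3.18, 0.167 and 0.0773 CPM in DsRed+ cTEC. The DsRed+ libraries spread widely around a low level, and the log2 fold change of 7.29 (SE 1.54) did not pass in the quasi-likelihood test (adjusted p = 0.0965, and 1.4e-04 by the likelihood ratio test, with a range of 2.8e-05 to 0.432). *Serpinb8*, which encodes an inhibitor of the proprotein convertase furin, stood at 55.8, 34.02 and 27.8 CPM against 10.1, 6.78 and 7.29 CPM (log2 fold change 2.28, SE 0.40, adjusted p = 0.0681). *Serpinb10* stood at 14.8, 24.1 and 12.0 CPM against 2.80, 3.46 and 2.91 CPM (log2 fold change 2.47, SE 0.54, adjusted p = 0.10). Both had smaller fold changes than their 3 neighbours. *Serpinb2* and *Serpinb10* share 291 bases of exon on the same strand, where their reads cannot be told apart.

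At the other end of the chromosome 1 cluster, *Serpinb5* encodes maspin, a clade B protein without known protease inhibition that is common in stratified epithelium. It stood at 167, 167 and 178 CPM in DsRed- cTEC, and at 184, 197 and 131 CPM in DsRed+ cTEC. The means of 171 ± 6.26 CPM and 171 ± 34.9 CPM (SD, n = 3 each) lay within the spread of the libraries (adjusted p = 1). *Serpinb12* had 41 counts in the DsRed+ library of A, 20 in the DsRed- library of C and 0 elsewhere. Between these members and *Serpinb11* lie *Serpinb13*, *Serpinb3a*, *Serpinb3d*, *Serpinb3b* and *Serpinb3c*, which are not members. *Serpinb13*, *Serpinb3b* and *Serpinb3c* had 0 counts in all libraries, and *Serpinb3a*, at 31.2, 10.98 and 17.02 CPM against 1.08, 5.80 and 16.1 CPM, overlapped between the subsets (adjusted p = 0.685).

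**Figure D2:**
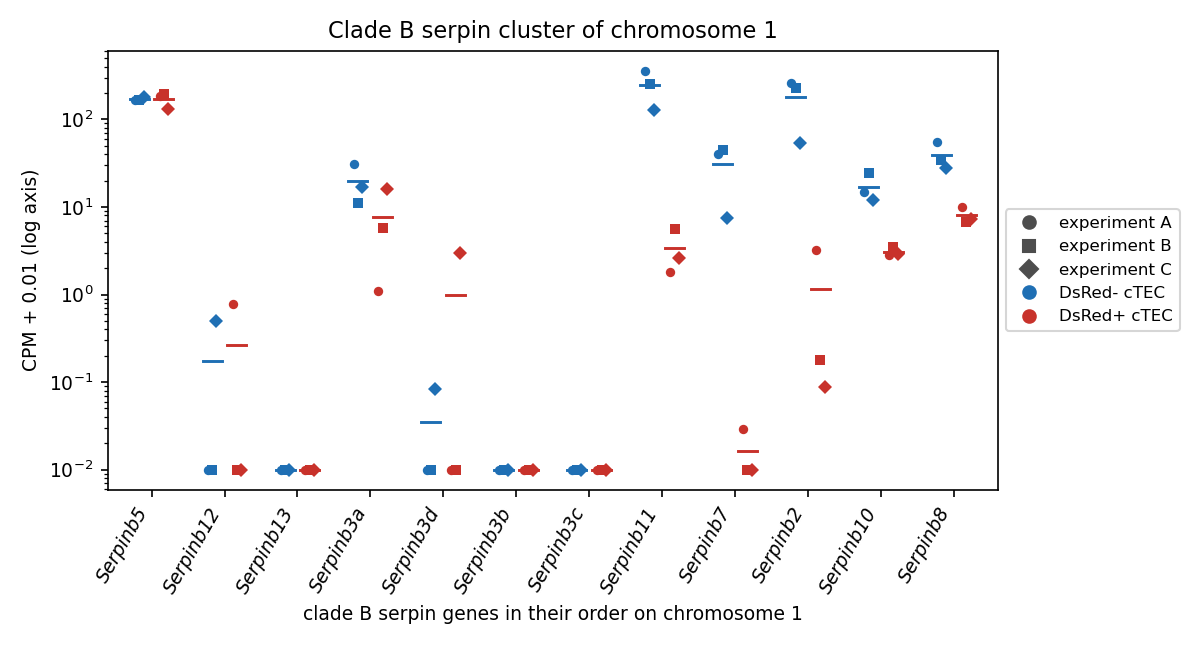
CPM + 0.01 on a log axis for the clade B serpin genes of chromosome 1, placed in their order along the chromosome and not to distance. Points are libraries, with DsRed- cTEC in blue and DsRed+ cTEC in red, and bars are means of 3 libraries. The blue and red points separate in the 5 genes at the right end, from *Serpinb11* to *Serpinb8*, and overlap in *Serpinb5* at the left end, where both means are 171 CPM.

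The windows of 250 bases before the RefSeq transcription starts were read for the letters TGANTCA, a site known for AP-1 factors that reads the same on both strands. They were found in a window of each of the 7 clade B members on chromosome 1, in none of the other 20 members that had a window, and in 6.75% of the 32851 windows of all genes. The 4 non-member clade B genes with a window in that cluster had none, nor did the 14 clade B genes with a window on chromosome 13. The letters stood before *Serpinb5* and *Serpinb12*, whose levels overlapped between the subsets, as well as before the 5 genes that did not overlap, so they did not set these apart. The windows of the 4 serpins *Serpinb7*, *Serpinb2*, *Serpinb10* and *Serpinb8*, of *Serpinb5* for comparison, and of *Slpi*, which rose and has no match, are printed from RefSeq on GRCm38.p6, read 5′ to 3′ along the gene, with the TGANTCA letters in capitals. The window of *Serpinb11* runs over an exon of other annotated transcripts and is not shown, and that of *Serpinb10* lies inside *Serpinb2*. Those of *Serpinb7* and *Slpi* lie inside the GENCODE gene, whose longest model starts further upstream, and overlap none of its exons.
*Serpinb7*, chr1:107422439-107422688, plus strand: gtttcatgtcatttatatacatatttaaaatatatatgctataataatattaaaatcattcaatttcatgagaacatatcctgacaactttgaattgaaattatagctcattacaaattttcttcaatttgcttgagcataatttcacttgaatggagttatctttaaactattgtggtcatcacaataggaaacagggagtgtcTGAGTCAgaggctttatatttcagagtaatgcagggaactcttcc
*Serpinb2*, chr1:107511173-107511422, plus strand: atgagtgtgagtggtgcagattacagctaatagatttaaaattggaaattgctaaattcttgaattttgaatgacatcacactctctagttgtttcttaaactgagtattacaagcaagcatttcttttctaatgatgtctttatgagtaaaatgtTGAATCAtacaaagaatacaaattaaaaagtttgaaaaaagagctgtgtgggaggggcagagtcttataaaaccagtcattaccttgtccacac
*Serpinb10*, chr1:107528753-107529002, plus strand: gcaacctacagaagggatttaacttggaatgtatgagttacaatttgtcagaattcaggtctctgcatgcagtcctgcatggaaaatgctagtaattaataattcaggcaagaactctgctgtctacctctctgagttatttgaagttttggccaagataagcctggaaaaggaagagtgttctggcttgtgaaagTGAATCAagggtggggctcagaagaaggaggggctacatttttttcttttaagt
*Serpinb8*, chr1:107589756-107590005, plus strand: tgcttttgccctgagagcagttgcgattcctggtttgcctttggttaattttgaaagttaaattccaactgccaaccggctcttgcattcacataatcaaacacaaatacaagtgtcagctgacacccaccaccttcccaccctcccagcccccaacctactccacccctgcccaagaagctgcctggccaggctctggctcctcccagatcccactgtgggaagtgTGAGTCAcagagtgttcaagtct
*Serpinb5*, chr1:106860925-106861174, plus strand: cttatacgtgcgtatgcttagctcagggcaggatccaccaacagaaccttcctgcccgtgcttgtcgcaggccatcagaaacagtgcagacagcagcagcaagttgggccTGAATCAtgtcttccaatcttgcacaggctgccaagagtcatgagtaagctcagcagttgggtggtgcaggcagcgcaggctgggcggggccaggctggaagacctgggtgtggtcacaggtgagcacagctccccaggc
*Slpi*, chr2:164356508-164356757, minus strand: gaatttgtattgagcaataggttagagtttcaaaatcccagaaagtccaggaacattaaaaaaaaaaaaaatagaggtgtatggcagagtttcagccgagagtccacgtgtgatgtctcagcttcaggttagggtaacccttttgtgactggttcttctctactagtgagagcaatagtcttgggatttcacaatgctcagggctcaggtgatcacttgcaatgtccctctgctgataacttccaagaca
In *Serpinb11* the matches TGATTCA and TGAATCA began 181 and 76 bases before the start, in *Serpinb7* TGAGTCA 45 bases, in *Serpinb2* TGAATCA 94 bases and in *Serpinb5* TGAATCA 140 bases before it. In *Serpinb8* and *Serpinb10*, TGAGTCA and TGAATCA began 23 and 54 bases before the start. In *Serpinb12*, TGATTCA began 45 bases before the start in 1 of its 2 windows. The other motifs were also searched on both strands. The letters TATAAA were found in 3 of the 27 members with a window (*Serpinb2*, *Serpinb7* and *Serpinb12*) and in 12.4% of all windows. GACGC, the core of the site that FOXN1 is known to bind, was found in *Timp3* and *Serpine2*, 2 of 27 members against 22.6% of all windows. AACCNGTT, a grainyhead-like site, and ATGCAAAT, the octamer of POU factors, were in no member window and in 1.79% and 1.60% of all windows. Such matches are descriptions and not evidence of binding.

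The 4 clade B members of chromosome 13 did not pass. *Serpinb1a*, whose protein blocks neutrophil elastase and cathepsin G, stood at 365, 554 and 63.6 CPM in DsRed- cTEC, and at 144, 117 and 143 CPM in DsRed+ cTEC. It was higher in A and B and lower in C (log2 fold change 1.28, SE 0.67, adjusted p = 0.549). *Serpinb6a*, a cytosolic inhibitor of cathepsin G, stood at 289 ± 67.8 CPM and 262 ± 22.1 CPM (mean ± SD, n = 3 each), a difference smaller than the spread between libraries (adjusted p = 0.899). *Serpinb6b* (log2 fold change 0.48, adjusted p = 0.630) and *Serpinb9*, which encodes an inhibitor of granzyme B (log2 fold change −0.27, adjusted p = 0.831), also overlapped. *Serpinb6a* and *Serpinb6b* have close copies among their neighbours, and reads aligned to several places were not counted, so their levels are uncertain. *Serpinb6a* also shares exon bases with *Nqo2*, *Ripk1* and *1110046J04Rik* on the opposite strand.

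Clade A members did not pass either. *Serpina3g*, which blocks cathepsins in lymphocytes, stood at 66.1, 129 and 49.1 CPM in DsRed- cTEC, and at 120, 132 and 40.3 CPM in DsRed+ cTEC (adjusted p = 0.936). *Serpina3n*, an antichymotrypsin-like inhibitor, stood at 40.1 ± 21.1 CPM and 48.4 ± 17.3 CPM (mean ± SD, n = 3 each, adjusted p = 0.912). Experiments differed by more than subsets in both genes. *Serpina3g* and *Serpina3n* belong to an array of similar genes, so their counts are uncertain too.

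Of the 8 other serpins, 6 were tested and none passed. *Serping1* encodes the C1 inhibitor of complement and was the highest serpin per kilobase of exon in DsRed- cTEC (211 CPM per kb). It stood at 336, 358 and 776 CPM in DsRed- cTEC, and at 103, 211 and 379 CPM in DsRed+ cTEC. It was higher in each experiment, but overlapped between the subsets (log2 fold change 1.08, SE 0.53, adjusted p = 0.518). *Serpinf1*, which encodes the anti-angiogenic factor PEDF, a serpin that does not inhibit proteases, stood at 186, 270 and 416 CPM in DsRed- cTEC, and at 177, 93.1 and 132 CPM in DsRed+ cTEC. The subsets did not overlap, by a narrow margin in A (log2 fold change 1.12, SE 0.36, adjusted p = 0.270). Both genes were highest in the DsRed- library of C. The summed level of 14 fibroblast markers was also higher in DsRed- cTEC. It was 7393, 7275 and 9484 CPM in A, B and C, against 3748, 3750 and 4478 CPM in DsRed+ cTEC. Within DsRed+ cTEC, this sum and *Serping1* were highest in C, while *Serpinf1* was highest in A. None of the 14 passed and none was at 0, and 2 were higher without overlap (9.73% of all genes). The part of these markers in the levels of *Serping1* and *Serpinf1* was not tested.

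*Serpinh1*, which encodes the collagen chaperone HSP47, went the other way, at 151, 142 and 160 CPM in DsRed- cTEC, and at 249, 209 and 291 CPM in DsRed+ cTEC. The subsets did not overlap, and the spread within DsRed- cTEC was small (log2 fold change −0.72, SE 0.19, adjusted p = 0.153, with a range of 0.0256 to 0.557 over the alternatives). *Serpini1*, which encodes neuroserpin, an inhibitor of tissue plasminogen activator, stood at 0.0462, 1.004 and 3.64 CPM in DsRed- cTEC, and at 10.5, 11.3 and 19.7 CPM in DsRed+ cTEC. It was low in each DsRed- library (log2 fold change −3.14, SE 1.32, adjusted p = 0.421). *Serpine2*, which encodes protease nexin 1, stood at 102, 368 and 195 CPM in DsRed- cTEC, and at 83.2, 97.9 and 268 CPM in DsRed+ cTEC, with overlap (adjusted p = 0.832).

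Serpins that the liver releases into plasma to control clotting had few counts in most libraries. *Serpinc1*, the antithrombin gene, had 730 counts in the DsRed- library of B and 0 to 63 in the others (adjusted p = 0.689), and it shares 2942 bases of exon with *Zbtb37* on the opposite strand. *Serpind1*, which encodes heparin cofactor II, had 0, 1 and 50 counts in DsRed- cTEC and 0 in DsRed+ cTEC, and over the subset it was at least 6.77-fold higher with a floor of 3 counts per library. That level came from the library of C alone. *Serpinf2*, which encodes alpha-2-antiplasmin, had 1 count in all. *Spink2*, *Serpinb12*, *Serpind1* and *Serpinf2* were the 4 members that did not pass the filter.

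**Figure D3:**
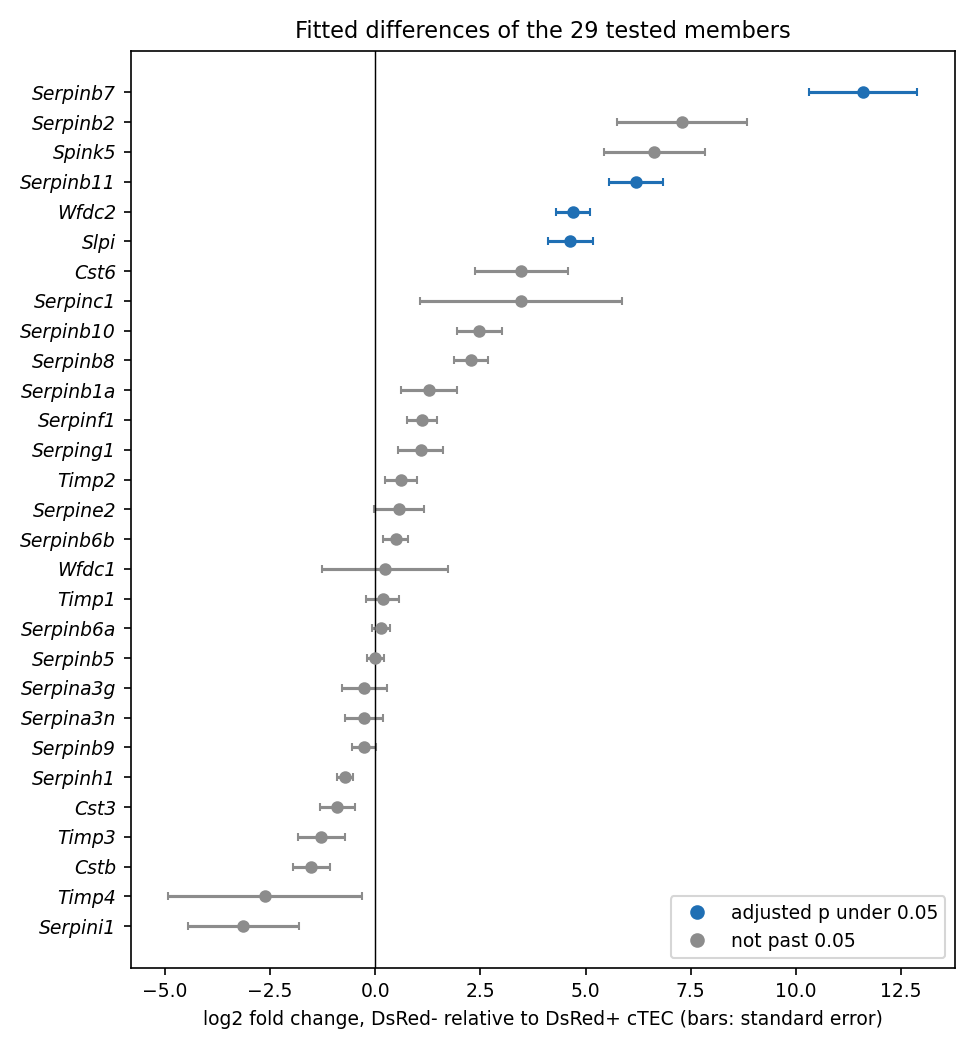
Fitted log2 fold change of the 29 tested members, DsRed- relative to DsRed+ cTEC, with bars for the SE from edgeR's quasi-likelihood test, in blue for an adjusted p under 0.05 and grey otherwise. *Serpinb7*, *Serpinb11*, *Wfdc2* and *Slpi* are blue, between 4.64 and 11.59, and *Serpini1* has the lowest value at −3.14.

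Markers of secretory epithelium and tuft cells also stood higher in DsRed- cTEC. Over all genes tested, 0.449% passed as higher and 9.73% were higher without overlap. Of 20 markers of secretory epithelium, 7 rose (*Cldn3*, *Cldn7*, *Pigr*, *Reg3g*, *Spdef*, *Foxa1* and *Cxcl17*), none fell and 18 did not overlap. Blocked by experiment, *Cldn3* and *Foxa1* did not pass (adjusted p = 0.0778 and 0.0735). With the block 6 of the 20 were higher (0.334% of all genes), not all of them among these 7. The summed level of the 20 markers was 32901, 18382 and 11789 CPM in DsRed- cTEC of A, B and C. In DsRed+ cTEC it was 2221, 1520 and 1031 CPM, and no marker was at 0. Of the 4 members that rose, *Wfdc2* and *Serpinb11* had the same order of DsRed- libraries, *Serpinb7* was highest in B and *Slpi* was level over A, B and C. Within DsRed+ cTEC, *Slpi* had the order of the sum, while *Wfdc2* and *Serpinb11* were highest in B. Among members that did not pass, *Spink5*, *Serpinb2* and *Serpinb8* had the order of the sum in DsRed- cTEC and *Serpinb10* was highest in B. Of 19 tuft cell markers tested, 5 rose (*Trpm5*, *Gfi1b*, *Chat*, *Alox5ap* and *Gng13*) and 16 did not overlap, at 4421, 1206 and 794 CPM against 87.5 to 164 CPM, and the tuft cytokine gene *Il25* had 0 counts in DsRed+ cTEC. Of these 5, *Gfi1b*, *Chat* and *Alox5ap* did not pass when blocked (adjusted p = 0.0778, 0.0749 and 0.0515). With the block 3 tuft markers were higher, not all of them among these 5. Of 11 keratinocyte markers tested none passed and 6 did not overlap, with *Dsc1* and *Sprr1b* at 0 in all libraries. Their sum was 738, 396 and 183 CPM in DsRed- cTEC of A, B and C, against 66.0 to 80.2 CPM. The tuft and keratinocyte sums thus had the same order of DsRed- libraries as the secretory sum, so that order does not set these lists apart. The summed level of mTEC markers overlapped between the subsets, at 7758 to 11319 CPM and 3491 to 13785 CPM, as did those of pericytes (803 to 1072 and 1047 to 1934 CPM), myeloid cells (22.5 to 402 and 17.5 to 80.9 CPM), thymocytes (63.0 to 124 and 45.9 to 372 CPM) and B cells (38.4 to 58.6 and 29.8 to 113 CPM, with *Pax5* at 0). None of the markers in these 5 lists passed in the quasi-likelihood test. Of 12 mTEC markers tested, 9 had a log2 fold change above 0, with a median of 0.90. Without overlap 2 of them were higher and 0 lower, against 9.73% and 9.32% of all genes. Blocked by experiment, 1 mTEC marker was higher. The part of these cell types in the levels of the inhibitors was not tested.

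**Figure D4:**
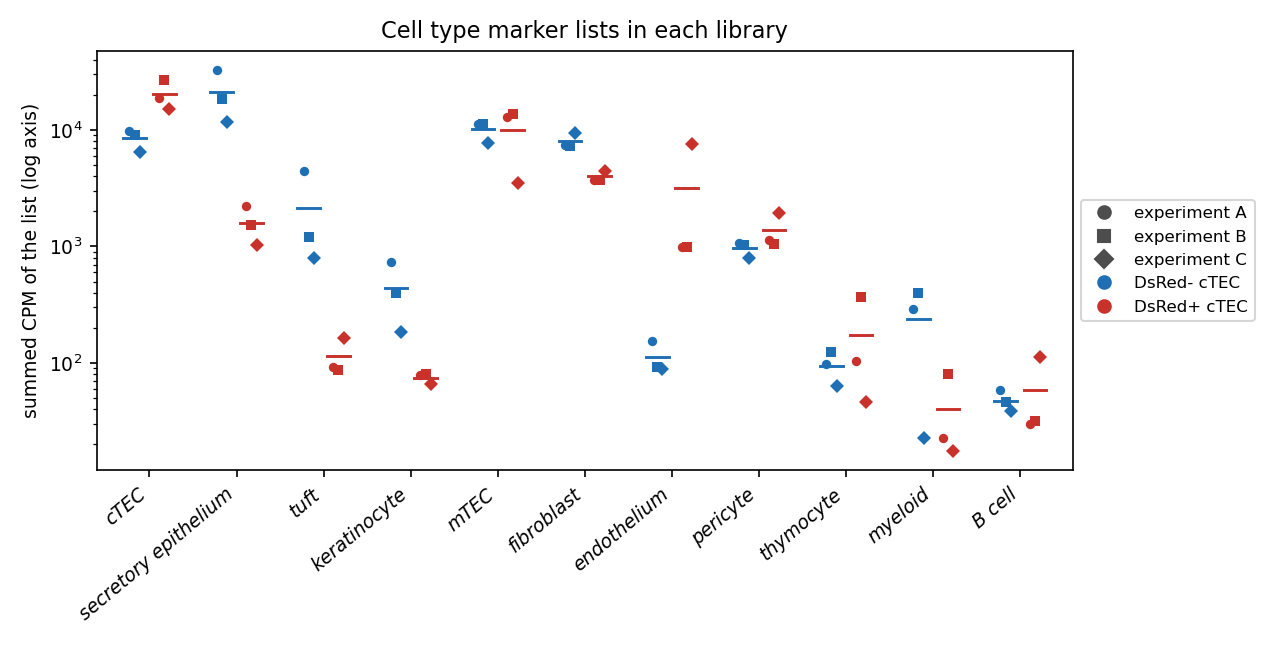
Summed CPM of each cell type marker list on a log axis, in DsRed- cTEC (blue) and DsRed+ cTEC (red), with 1 point per library and a bar for the mean of 3 libraries. The secretory, tuft, keratinocyte and fibroblast sums are higher in DsRed- cTEC without overlap, the cTEC and endothelial sums are lower without overlap, and the mTEC sums overlap.

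To set the inhibitors beside the other genes of the system, further inhibitors and the proteases that such inhibitors act on were counted in the same test. Of 40 other inhibitor genes tested, 1 rose and none fell (0.449% and 0.173% of all genes). At an unadjusted p under 0.05, 8 were higher and 1 lower (7.02% and 4.80% of all genes). The median log2 fold change was 0.55. The riser was *Spink1*, a trypsin inhibitor gene of the pancreas and gut, at 68.9, 40.6 and 11.9 CPM in DsRed- cTEC, and at 0.0378, 0.0626 and 0.0515 CPM in DsRed+ cTEC (log2 fold change 9.57, SE 0.93, adjusted p = 0.0319). Within DsRed- cTEC *Spink1* followed the same order of libraries as *Spink5*, and within DsRed+ cTEC its levels were too low to be put in order. The WAP genes *Wfdc18* (737 ± 412 CPM against 44.6 ± 45.7 CPM, mean ± SD, n = 3 each, adjusted p = 0.0956) and *Wfdc12* (adjusted p = 0.131), and *Papln* (adjusted p = 0.127), did not pass and did not overlap between the subsets.

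Among the 28 serine proteases tested, *Prss16* fell and none rose. Over all genes tested, 0.173% passed as lower and 0.449% as higher, shares that also stand beside the protease lists that follow. *Prss16* stood at 74.5, 163 and 153 CPM in DsRed- cTEC, and at 2412, 4193 and 2273 CPM in DsRed+ cTEC (adjusted p = 0.0319). Blocked by experiment, the membrane proteases *Tmprss4* and *St14* were higher (adjusted p = 0.0255 and 0.0451, against 0.0923 and 0.186 without it). With the block 0.334% of all genes passed as higher. *St14* encodes matriptase, and stood at 395, 245 and 145 CPM against 118, 71.3 and 40.6 CPM. *Klk1* and *Tmprss2* did not pass (adjusted p = 0.133 and 0.166). The median log2 fold change of the serine proteases was 1.44. Of 18 cysteine proteases, *Ctsh* rose, at 320, 298 and 115 CPM against 21.1, 25.2 and 14.97 CPM (log2 fold change 3.58, SE 0.45, adjusted p = 0.0391). The gene encodes cathepsin H, which cystatins can block. *Ctsl*, the gene of cathepsin L, stood at 1820, 1822 and 1979 CPM against 5051, 6966 and 3128 CPM and did not pass (adjusted p = 0.0956), nor did *Ctsc* and *Ctss* (adjusted p = 0.139 and 0.143), which were higher in every DsRed- library. Of 27 metalloproteinases tested, *Adam8*, a membrane-anchored sheddase gene, rose from 0.387 ± 0.279 CPM to 104 ± 74.8 CPM (SD, n = 3 each, adjusted p = 0.0391). The genes with the next lowest p, *Adamts9*, *Adamts1* and *Adamts4*, were each lower in every DsRed- library and did not pass (adjusted p = 0.128, 0.221 and 0.252).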

How the data were processed

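Libraries of sorted cTEC RNA, made with the SMARTer Ultra Low Input kit, were sequenced. Reads were trimmed (Trimmomatic 0.36) and mapped (STAR 2.7.3a) to mm10, and the authors deposited HTSeq counts per gene, not normalized. Neither the strand setting nor the gene models used for counting are stated. Library totals and tests excluded the reporter entry, 92 spike-in entries and 5 summary entries. Reads outside genes equalled 5.87% to 9.35%, and multiply aligned reads 5.61% to 9.07%, of the gene counts. Of 39179 gene IDs, 37693 were found in GENCODE M21 (GRCm38, the same assembly as mm10), the source of symbols, coordinates and exon lengths. Promoter windows were those of RefSeq for GRCm38.p6.

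The test across all genes was edgeR 4.0.16 (quasi-likelihood, TMM, prior count 0.125, R 4.3.3) on the 15576 genes passing filterByExpr at a minimum count of 10, with Benjamini-Hochberg adjusted p-values. Every adjusted p printed without another tool's name is from this test. SE is the absolute log2 fold change over the square root of the F statistic. The procedure was tested on counts simulated with the dispersions of these libraries and no effect of experiment. Such a test cannot show whether a call made here holds. Other settings tried were a replicate block for experiments, edgeR's likelihood ratio test, DESeq2 1.42.0, voom in limma 3.58.1, RLE size factors, unscaled totals, no filter, a filter at a mean of 1 CPM, and removal of single libraries or experiments. Adjusted p-values that DESeq2 left empty stayed empty. Experiment letters come from the labels and were taken to pair the libraries, whose deviations from the subset means correlated at 0.0296 (A), 0.0892 (B) and 0.0810 (C) within an experiment and at −0.111 to 0.00632 between experiments. Chi-square over degrees of freedom was 168 to 725 between libraries, so no library was counted as a duplicate. The study's results text calls the 3 libraries of a subset independent biological replicates, while a legend to its RNA-seq plots speaks of technical replicates of 1 experiment. Which of these the libraries are was not settled here, and p-values describe only how these 6 libraries vary, which may be technical. An exact permutation test of 3 against 3 cannot give less than p = 0.1. Intervals and floors account for counting error alone, because amplified reads are not separate molecules.

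The members and the gene lists were chosen with earlier results of these data known. Genes named are the 33 members, the genes that passed and the 4 of lowest p in each list of further inhibitors and proteases, and markers that passed or lay at 0, of which 1 is not reported here. The promoter motifs and the kallikrein genes were picked with values in view. Figures used matplotlib 3.10.9.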

Additional observations from a re-analysis of the deposited data

How the results depend on the processing

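The count of 4 members higher was 4 with the experiment as a replicate block, with RLE factors, with library totals and with a mean of at least 1 CPM, and 5 with no filter, where *Spink5* was added. With the replicate block *Spink5* took the place of *Slpi*. The count was 9 by edgeR's likelihood ratio test, 9 by DESeq2 and 1 by limma voom. The count of members lower was 1 by the likelihood ratio test (*Cstb*) and 2 by DESeq2 (*Cstb* and *Serpinh1*), and 0 otherwise. In leave-outs of 1 library or 1 experiment, 0 to 4 members were higher and 0 were lower. Of all genes, 0 to 139 passed. Unadjusted p was under 0.05 for 11 to 16 of 29 to 31 members and 1361 to 2691 of 15866 to 16704 genes. In the leave-outs 9 to 15 members did not overlap as higher and 3 to 8 as lower, which takes fewer libraries to reach. The share of all genes without overlap was not counted there, so these counts have no background to be read against. The median log2 fold change of the members was 0.16 to 0.74. Of the other inhibitors and proteases, 3 were higher and 1 lower, against 5 higher with the replicate block, 14 and 5 by the likelihood ratio test, 17 and 4 by DESeq2 and 0 higher by limma voom, and 0 to 4 higher and 0 to 2 lower in leave-outs. For the replicate block, the likelihood ratio test, DESeq2 and limma voom, the shares of all genes are those printed beside the member counts in the Results. No member past the threshold changed direction under any alternative run. In these 4 members every DsRed- library was above every DsRed+ library, so leaving out libraries could not turn the sign. *Serpinb5*, at a log2 fold change near 0, was at 0.020 with the replicate block, 0.0069 by DESeq2, 0.011 by limma voom and 0.0069 with RLE factors, and *Serpinc1* was at −0.58 by limma voom. In leave-outs the sign turned for *Wfdc1* (−0.61 to 1.07), *Timp1* (−0.23 to 0.55), *Timp4* (−10.44 to 0.028), *Serpina3n* (−0.79 to 0.0068), *Serpinb5* (−0.22 to 0.14), *Serpinb6a* (−0.11 to 0.33), *Serpinc1* (−2.75 to 4.34) and *Serpine2* (−0.22 to 1.34), none of which passed. The causes of these changes were not tested. The filter on low counts removed 4 of the 33 members, which had counts in only 1 or 2 libraries. With no filter all 33 were tested.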
